A study of Mus musculus with 36 samples.

Results

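The H2-Mv genes are 9 nonclassical class I genes of the mouse major histocompatibility complex: H2-M1, H2-M9, the 6 H2-M10 genes from H2-M10.1 to H2-M10.6, and H2-M11. They were taken by name, as 9 of the 24617 gene symbols in the RNA-seq tables, and their values were read in the vomeronasal organ (VNO), the main olfactory epithelium (MOE) and the olfactory bulb (OB). The 36 libraries came from female and male C57BL/6 mice that were weaned at 3 weeks, kept at 4 animals per cage and killed at 6 months of age. After weaning, mice lived either apart from the other sex (SF for sex-separated females and SM for the males) or together with it (CF for sex-combined females and CM for the males). By the paper's methods, the sex-separated cages stood in rooms that held mice of that sex only. Pups were born in the sex-combined cages and were killed soon after birth. The housings therefore differed in room and in births as well as in cage company. Each tissue had 3 libraries per group. Each library was made from RNA pooled from several mice, so p-values measure the spread between pools. The number of mice per pool differs between the labels and the methods. By the paper, VNO, MOE and OB were taken from each mouse, so the tissues are not separate sets of animals. The labels name no transgene or drug, and all groups shared strain and age.

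Class I proteins are membrane proteins that pair with beta-2-microglobulin at the cell surface, and the classical members present peptides to T cells. The H2-Mv genes are known instead for expression in sensory neurons of the basal layer of the vomeronasal epithelium, where different neurons use different members together with receptors of the V2R family (Vmn2r genes) and the G protein subunit encoded by Gnao1. Neurons of the apical layer use V1R receptors (Vmn1r genes) and the subunit encoded by Gnai2, and both layers signal through the ion channel Trpc2.

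The 9 loci lie side by side on chromosome 17 within 531 kb, from 36421226 to 36952511 of mouse build mm9, the build of the deposited tables. Along the chromosome their order was H2-M10.2, H2-M10.1, H2-M10.3, H2-M10.4, H2-M11, H2-M9, H2-M1, H2-M10.5 and H2-M10.6. The tables listed 0 other transcripts within that span, and 0 other entries overlapped a member. The H2-M10.5 locus ran from 36909855 to 36913180 and the H2-M10.3 locus from 36501949 to 36505362. H2-M10.1 had 2 transcript entries with the same outer ends, which were summed, and the second entry held 16.8% ± 9.03 (SD, n = 12) of its VNO level.

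All 9 genes carried the letters CCAATC, a core of the CCAAT box, on the sense strand shortly before the annotated start. The 62-base windows around it are shown because the values below compare these 9 genes with each other, and the windows show how closely they are related just upstream of the transcript. They are RefSeq sequence of build GRCm38.p6 (not the mm9 build of the tables), written 5′ to 3′ on the strand of the gene, with CCAATC in capitals.
H2-M10.5 (chr17:36772814-36772875, plus strand): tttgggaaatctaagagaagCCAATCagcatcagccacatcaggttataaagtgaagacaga
H2-M10.3 (chr17:36368446-36368507, minus strand): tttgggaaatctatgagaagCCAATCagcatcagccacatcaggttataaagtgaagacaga
H2-M10.4 (chr17:36462365-36462426, minus strand): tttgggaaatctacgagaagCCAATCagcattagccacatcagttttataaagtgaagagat
H2-M10.1 (chr17:36326185-36326246, minus strand): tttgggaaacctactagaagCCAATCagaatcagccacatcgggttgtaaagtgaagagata
H2-M10.2 (chr17:36286452-36286513, minus strand): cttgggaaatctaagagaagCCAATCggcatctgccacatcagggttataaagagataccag
H2-M10.6 (chr17:36812081-36812142, plus strand): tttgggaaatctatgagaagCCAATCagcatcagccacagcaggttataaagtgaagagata
H2-M1 (chr17:36672232-36672293, minus strand): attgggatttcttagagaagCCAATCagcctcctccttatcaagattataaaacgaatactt
H2-M9 (chr17:36642679-36642740, minus strand): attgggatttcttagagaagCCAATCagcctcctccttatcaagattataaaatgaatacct
H2-M11 (chr17:36546973-36547034, plus strand): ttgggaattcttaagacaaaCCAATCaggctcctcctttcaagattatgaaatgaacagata

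The box began 57 to 82 bases before the annotated start. The letters TATAAA, the core of a TATA box, followed it by 25 or 26 bases (first letter to first letter) in 7 of the 9 genes, and were not in the windows of H2-M10.1 and H2-M11. Searched on both strands of the 250 bases before each start, CCAATC was in 14.6% of 32851 promoters of the RefSeq table. The longer CCAATCAG, which overlaps it, was in 8 of the 9 members (not in H2-M10.2) and in 3.83% of promoters, and TATAAA was in 12.4%. Outside the family, CCAATC was also upstream of H2-K1, H2-D1 and B2m, CCAATCAG of H2-D1, and TATAAA of H2-D1 and B2m. The letters TGACGC, found upstream of H2-K1, H2-D1 and H2-M3, were in 0 of the 9 and in 6.12% of promoters. A match is only a match of letters, and the members are copies of one another, so these are not independent occurrences.

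The coding sequences of the 6 H2-M10 genes were 82.9% to 89.6% identical in pairs (median 85.8%), against 61.7% to 66.9% between an H2-M10 gene and H2-M1, H2-M9 or H2-M11. The closest pair was H2-M10.3 and H2-M10.5, at 89.6% in the coding sequence and 94.6% in the upstream sequence. H2-M1 and H2-M9 formed a second pair, at 85.6% and 92.6%. This identity bears on the measurement, since a read from a shared stretch cannot be given to 1 gene. Of all stretches of 50 bases (the length of 1 read) in the coding sequence, 16.2% of H2-M10.5, 14.5% of H2-M10.3 and 14.1% of H2-M10.2 also occurred in another transcript. The share was 8.71% for H2-M10.6, 5.72% for H2-M10.4 and 5.40% for H2-M10.1. It was 1.02% for both H2-M1 and H2-M9 and 0% for H2-M11. Most of these stretches were shared with other members, such as 144 of 152 in H2-M10.5. In each gene from H2-M10.2 to H2-M10.6, 1 stretch also occurred in H2-T genes. The levels of the H2-M10 genes are therefore uncertain to the extent that the counting split such reads between them or with transcripts outside the family.

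Expression was given as FPKM, the fragments of a transcript normalised to its length and to the size of the library, which sets genes of different length on 1 scale. The fragments behind all genes of a library, estimated from the confidence limits in the tables, ranged from 3285139 to 6240984 in VNO, from 2995382 to 5820021 in MOE and from 3245031 to 5996408 in OB. The tissue labels held against their markers: Trpc2 was at 43.0 ± 4.85 FPKM in VNO against 0.938 ± 0.246 in MOE (SD, n = 12 each). Cnga2, the channel of main olfactory neurons, was at 213 ± 36.9 FPKM in MOE against 2.18 ± 1.02 in VNO. All markers of basal vomeronasal neurons were above 0 in VNO. They were also above 0 in at least 1 library of MOE and of OB, so this does not tell the tissues apart. Gnao1 among them was at 4.85 ± 0.691 FPKM in VNO, 4.12 ± 0.789 in MOE and 11.3 ± 0.937 in OB.

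In VNO all 9 H2-Mv genes were measured in all 12 libraries, and H2-M10.5 was the highest of them. Its level was 20.2 ± 2.03 FPKM (SD, n = 12), with 304 to 669 estimated fragments per library. H2-M10.3 followed at 8.04 ± 1.0 FPKM, so that H2-M10.5 was 2.52 times as high, and the ranges of both genes over the 12 libraries did not overlap. H2-M10.3, H2-M10.4 at 7.92 ± 1.20 and H2-M10.1 at 7.91 ± 1.01 FPKM could not be ordered: each was above the next in 6 of 12 libraries. H2-M10.2 was at 6.33 ± 1.13 FPKM and below H2-M10.1 in 12 of 12 libraries. H2-M10.6, at 4.85 ± 0.668 FPKM, was below H2-M10.2 in 11 of 12.

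The 3 members outside the H2-M10 group were the lowest. H2-M1 was at 3.81 ± 0.596 FPKM and below H2-M10.6 in 11 of 12 libraries. H2-M9 was at 2.34 ± 0.564 FPKM, below H2-M1 in 12 of 12, and H2-M11 at 1.13 ± 0.247 FPKM, below H2-M9 in 12 of 12. From H2-M10.1 downward, neighbours in this order overlapped in range over the 12 libraries, although they kept their order within nearly every library. H2-M11 rested on 12 to 33 fragments per library, and its coefficient of variation of 21.8% was no larger than the 22.3% that counting error alone gives. For H2-M10.5 the coefficient of variation was 10.02% against a counting error of 4.58%.

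Summed over the 9 genes, the H2-Mv level in VNO was 62.6 ± 5.97 FPKM (54.8 to 69.4). H2-M10.5 alone made up 32.4% ± 2.33 of the sum, and the 6 H2-M10 genes together 88.3% ± 1.61 (86.0% to 90.9%). H2-M1 contributed 6.12% ± 0.976, H2-M9 3.72% ± 0.753 and H2-M11 1.82% ± 0.400. Over the 12 libraries H2-M10.5 ran from 28.7% to 35.8%, H2-M9 from 2.55% to 4.60% and H2-M11 from 1.30% to 2.61%, as the plot of shares by library shows.

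**Figure D1:**
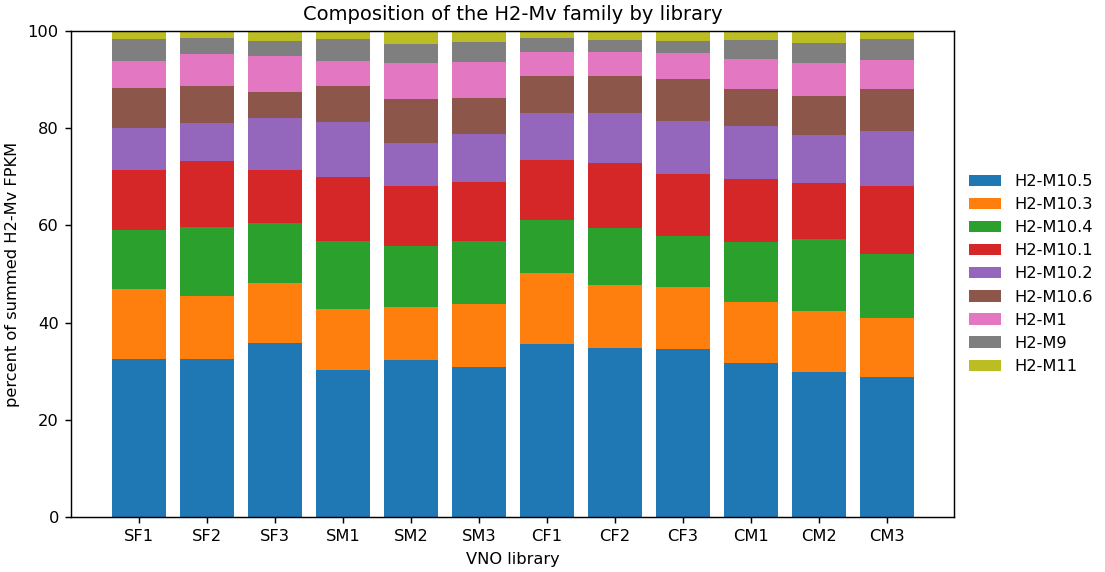
Percent of the summed H2-Mv FPKM (y axis) taken by each gene in each of the 12 VNO libraries (x axis, 3 per group; 1 bar per library, 1 colour per gene). H2-M10.5 is the largest segment in every bar, at 28.7% to 35.8%, and the 6 H2-M10 genes fill 86.0% to 90.9% of each bar.

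B2m, which encodes the light chain shared by class I proteins, was at 195 ± 15.6 FPKM in VNO, above the whole H2-Mv sum. The classical heavy chain genes H2-K1 and H2-D1, at 83.1 ± 7.67 and 78.1 ± 8.23 FPKM, each had a mean above that sum too. Tap1, a subunit of the transporter that supplies peptides for classical class I proteins, was at 4.78 ± 0.505 FPKM. These genes are expressed by most cell types, so their levels in whole VNO are not levels in neurons. The 9 H2-Mv genes together amounted to 25.6% ± 1.54 of the summed FPKM of the 120 Vmn2r genes, and to 31.5% ± 1.0 of that of the 221 Vmn1r genes.

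In MOE the family was at or near 0 with 2 exceptions, H2-M10.3 and H2-M10.6. H2-M10.3 was at 0.990 ± 0.303 FPKM and H2-M10.6 at 0.633 ± 0.243 FPKM (SD, n = 12), both above 0 in 12 of 12 libraries, with 11 to 34 and 8 to 26 fragments per library. H2-M10.5, the highest gene in VNO, was at 0.102 ± 0.0680 FPKM, from 0 to 6 fragments per library. H2-M10.1 was listed at 0 in all 12 MOE libraries. The other 5 members, H2-M1, H2-M9, H2-M10.2, H2-M10.4 and H2-M11, had 1 to 9 fragments each over all 12 libraries together.

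The order of H2-M10.3 and H2-M10.5 was thus opposite in both epithelia. In VNO, H2-M10.3 was at 0.397 times the level of H2-M10.5 and above it in 0 of 12 libraries. In MOE it was at 9.73 times that level and above it in 12 of 12. H2-M10.6 behaved likewise, at 0.240 times the level of H2-M10.5 in VNO and at 6.22 times in MOE. The MOE level of H2-M10.3 was 12.3% of its VNO level and that of H2-M10.6 was 13.0%, while the other 7 members together were at 0.391%.

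Vomeronasal transcripts in MOE were measured beside these values. The Vmn2r genes summed to 2.24 ± 0.510 FPKM in MOE, 0.915% of VNO, and the Vmn1r genes to 1.04 ± 0.386 FPKM, 0.523% of VNO. Trpc2 in MOE was at 2.18% of VNO, Calr4, a marker of basal vomeronasal neurons, at 0.339%, and Tfap2e, a basal fate factor, at 0.542%. The percentages of H2-M10.3 and H2-M10.6 were above all of these, and those of the other H2-Mv genes, at 0% to 1.16%, lay near them. Vmn2r1 and Vmn2r2, broadly used basal receptors, were at 0.0916 and 0.0233 FPKM in MOE. Gnao1 and Robo2, also on the list of basal markers, went the other way. Gnao1 in MOE was at 84.9% of VNO, above H2-M10.3 and H2-M10.6. Robo2 was at 5.06 ± 0.745 FPKM in MOE against 3.62 ± 0.266 in VNO. Tissue levels are a description, and fewer cells of a type and less RNA per cell cannot be told apart in bulk tissue.

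**Figure D2:**
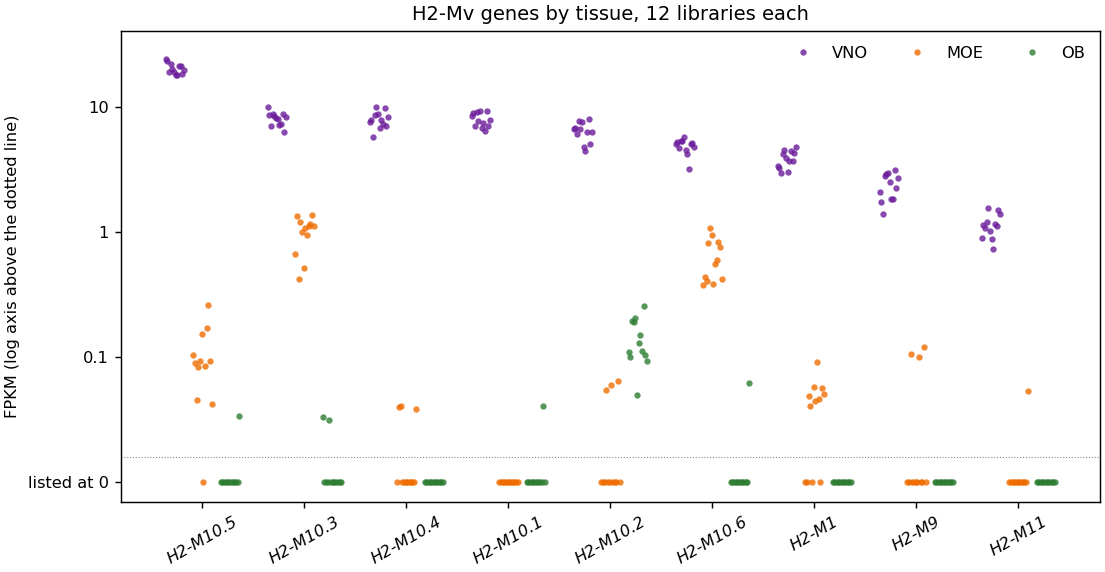
FPKM of each H2-Mv gene (log y axis, with values of 0 drawn on a separate line at the bottom) in VNO, MOE and OB, 1 point per library and 12 libraries per tissue. All 9 genes are above 0 in every VNO library, with means from 20.2 FPKM for H2-M10.5 to 1.13 for H2-M11. In MOE only H2-M10.3 and H2-M10.6 stay above 0.3 FPKM, and in OB only H2-M10.2 is above 0 in every library.

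In OB, which receives the axons of both epithelia, H2-M10.2 was the exception. It was above 0 in 12 of 12 libraries, at 0.141 ± 0.0586 FPKM and 1 to 4 fragments per library, 31.0 fragments in all, and its mean was 2.22% of the VNO level. The other 8 members had at most 2 fragments each over the 12 OB libraries, and H2-M1, H2-M9, H2-M10.4 and H2-M11 were listed at 0 in all of them. In MOE, H2-M10.2 had 3 fragments over 12 libraries. The level in OB is at the limit that single fragments give, and no member reached the minimum mean of 0.5 FPKM for testing there.

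Housing with or without the other sex, and sex itself, were the conditions that the study compared. In VNO all 9 members passed the minimum and were tested with limma on log2(FPKM + 0.5), in a fit of all 13814 genes, with p-values adjusted over all of them. The scale understates changes of low genes such as H2-M11. No member passed an adjusted p of 0.05 in any of the 7 comparisons, while members with an unadjusted p under 0.05 numbered from 0 to 5.

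H2-M9 had the largest sex difference over both housings. Its FPKM was 2.52, 1.84 and 1.84 in the SF libraries against 3.10, 2.23 and 2.69 in SM. In the sex-combined mice it was 2.09, 1.72 and 1.40 in CF against 2.81, 2.88 and 2.97 in CM. All CF libraries were below all CM libraries, while SF and SM overlapped through the first SF library, the shallowest of the 12. The log2 difference of females minus males was -0.31 (95% interval -0.61 to -0.00346, adjusted p = 0.563) in sex-separated mice and -0.61 (-0.92 to -0.31, adjusted p = 0.454, unadjusted 0.000921) in sex-combined mice. Over both housings it was -0.46 (-0.67 to -0.24), with an adjusted p of 0.159.

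H2-M1, the close relative of H2-M9, showed the same direction. Its FPKM was 3.02, 3.66 and 4.38 in SF against 3.68, 4.23 and 4.74 in SM, which overlapped. It was 3.35, 3.22 and 2.94 in CF against 4.17, 4.46 and 3.88 in CM, with no overlap. The log2 difference was -0.18 ± 0.12 (SE, limma) for SF minus SM and -0.35 ± 0.12 for CF minus CM, with adjusted p of 0.652 and 1. The first value was -0.06 without the first SF library and -0.10 without the third SM library.

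H2-M10.6 stood apart by its order over all 4 groups. Its FPKM was 4.47, 4.21 and 3.20 in SF, 5.04, 5.12 and 4.79 in SM, 5.07, 5.17 and 4.68 in CF, and 5.32, 5.36 and 5.76 in CM. All SF libraries were thus below all SM and all CF libraries, and all CM libraries were above those of SM and CF. The log2 difference was -0.31 (-0.53 to -0.09, adjusted p = 0.487) for SF minus SM and -0.13 (-0.35 to 0.09, adjusted p = 1) for CF minus CM. For SF minus CF it was -0.31 (-0.53 to -0.09) with an adjusted p of 0.404. Without the third SF library, the lowest of the 12, both values for SF were -0.18.

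H2-M10.4 was at 6.69, 7.85 and 7.26 FPKM in SF and at 9.71, 7.06 and 8.33 in SM. It was at 7.54, 7.78 and 5.75 in CF and at 8.55, 9.91 and 8.69 in CM. CF lay wholly below CM, at a log2 difference of -0.35 (-0.63 to -0.07, adjusted p = 1), or -0.22 without the third CF library, and SF overlapped SM. H2-M11, the lowest member, had a mean of 0.921 ± 0.218 FPKM in SF and 1.32 ± 0.194 in SM (SD, n = 3 each), with a log2 difference of -0.36 (-0.68 to -0.04, adjusted p = 0.544) and overlapping libraries.

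H2-M10.5 and H2-M10.3, the closest pair in sequence, had the smallest sex differences over both housings. H2-M10.5 was at 17.8, 18.0 and 21.1 FPKM in SF, 20.97, 18.3 and 19.7 in SM, 24.1, 23.04 and 18.9 in CF, and 21.9, 20.0 and 19.1 in CM, with overlap in every comparison. Its log2 difference was -0.05 for SF minus SM, 0.11 for CF minus CM and 0.03 (-0.13 to 0.19) for all females minus all males. H2-M10.3 was at 7.91, 7.16 and 7.30 FPKM in SF, 8.75, 6.21 and 8.32 in SM, 9.94, 8.61 and 6.96 in CF, and 8.73, 8.42 and 8.14 in CM. Its log2 difference over both housings was -0.02 (-0.23 to 0.18). The sign of these small values rested on single libraries. H2-M10.3 over both housings was at 0.04 without the third CF library, 0.02 without the first SM library and 0.00590 without the third. H2-M10.5 over both housings was at -0.00418 without the first CF library and -0.00896 without the third SF library.

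H2-M10.1 and H2-M10.2 lay between these extremes. H2-M10.1 was at 6.43 to 7.46 FPKM in SF, 7.05 to 9.18 in SM, 6.99 to 8.94 in CF and 7.75 to 9.29 in CM. H2-M10.2 was at 4.39 to 6.29 FPKM in SF, 5.03 to 7.92 in SM, 6.08 to 6.77 in CF and 6.59 to 7.63 in CM. Their log2 differences of all females minus all males were -0.15 (-0.33 to 0.03) and -0.21 (-0.45 to 0.02), and both sexes overlapped within each housing.

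**Figure D3:**
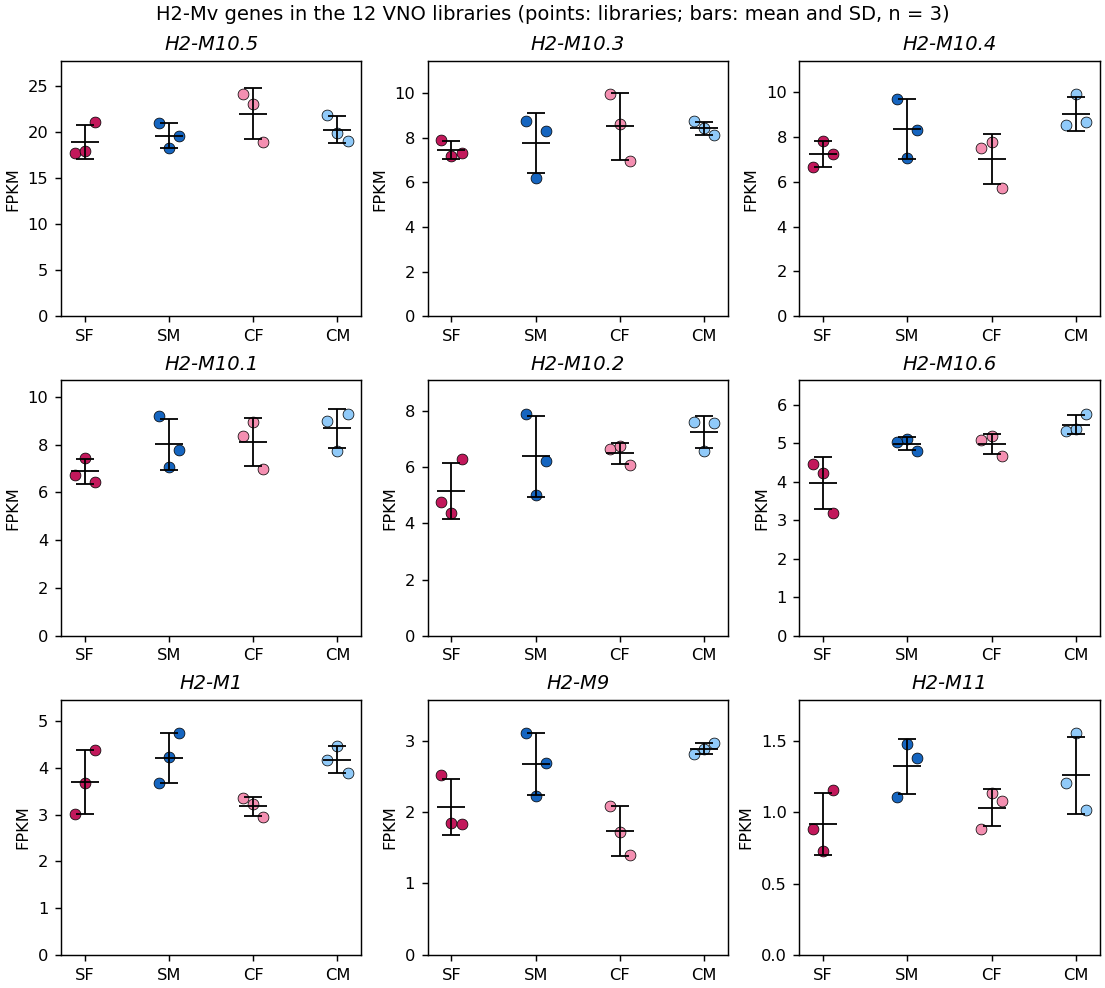
FPKM (y axis, from 0, scaled per gene) of each H2-Mv gene in the 4 VNO groups (x axis), with 1 point per library and the mean and SD of 3 libraries as bars. H2-M9, H2-M1, H2-M10.4 and H2-M10.6 have all CF points below all CM points, while H2-M10.5 and H2-M10.3 overlap between SF and SM and between the sex-combined groups.

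Counted over the family, 0 of 9 members passed for SF minus SM, where 0.0724% of all genes did, 0 of 9 for CF minus CM (0.0434% of genes) and 0 of 9 for all females minus all males (0.123%). The interaction of sex and housing called 0 members and 0% of genes, with 0 members at an unadjusted p under 0.05. At an unadjusted p under 0.05 there were 3 members for SF minus SM (8.82% of genes), 3 for CF minus CM (3.92%) and 5 for all females minus all males (6.75%).

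For SF minus SM the estimates were below 0 in 9 of 9 members, with a median of -0.20, beside a median of -0.08 over all genes, 74.7% of which were below 0. For CF minus CM they were below 0 in 8 of 9, with a median of -0.15 beside 0.01 over all genes, 45.3% of which were below 0. For all females minus all males they were below 0 in 8 of 9, with a median of -0.22 beside -0.03. With any 1 library left out these counts ran from 8 to 9, from 7 to 8 and from 7 to 9. With quantile normalization the counts were 7, 8 and 7 of 9, and relative to the summed Vmn2r level they were 9, 8 and 8 of 9. H2-M10.3 for SF minus SM and for all females minus all males, and H2-M10.5 for SF minus SM, went above 0 under quantile normalization.

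All libraries of the female group were below all libraries of the male group for 4 of 9 members between CF and CM (H2-M1, H2-M9, H2-M10.4 and H2-M10.6), where 3.25% of all genes were. Between SF and SM this held for 1 of 9, H2-M10.6, where 13% of all genes were. With 6 females against 6 males it held for 0 of 9, beside 0.413% of genes.

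**Figure D4:**
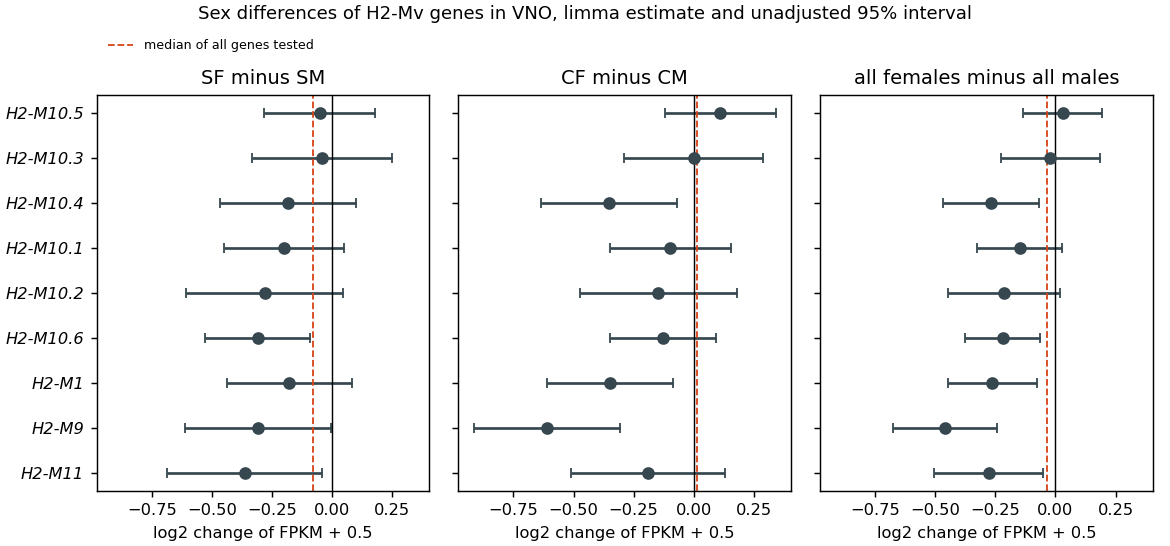
Log2 difference of FPKM + 0.5 between females and males in VNO (x axis) for each H2-Mv gene (y axis) in sex-separated mice, in sex-combined mice and in both, as the limma estimate with its unadjusted 95% interval. The dashed line is the median of all genes tested, and H2-M9 has the estimate farthest from 0 in the middle and right panels, at -0.61 and -0.46.

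Since H2-M10.5 did not share the lower mean of most other members, its share of the family differed between the sexes, a feature chosen after its values were seen and given without a test. It made up 32.5% to 35.8% (median 34.6%) of the H2-Mv sum in the 6 female libraries and 28.7% to 32.3% (median 30.5%) in the 6 male libraries, with no overlap. The share of H2-M9 was 2.55% to 4.60% in females and 3.93% to 4.47% in males, which overlapped through the first SF library.

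Marker sums were set beside these sex differences, and no test was made of a sum. Bone and cartilage markers (4 of 4 above 0) summed to 109 to 152 FPKM in females and 81.0 to 101.3 in males, without overlap, although Ibsp (adjusted p = 0.0822) and Bglap (0.140), both bone matrix genes of that list, did not pass in limma over both housings. Leukocyte markers (6 of 6 above 0) summed to 400 to 570 FPKM in females and 516 to 814 in males, which overlapped. Their sum in SF, at 400 to 489, lay below that in SM, at 516 to 608. Of these markers Lyz2 had the widest gap, with a mean of 173.8 FPKM in SF and 279.9 in SM. Cd74 was nearly level, at 119.8 in SF and 120.8 in SM. H2-Aa alone was higher in SF, at 87.5 against 84.5, so the leukocyte markers did not differ alike. The Vmn1r genes summed to 171 to 208 FPKM in females and 183 to 232 in males, and the markers of basal vomeronasal neurons (6 of 6 above 0) to 64.5 to 80.6 and 65.0 to 79.9, and both overlapped. Between SF and SM, marker sums of apical vomeronasal neurons did not overlap, at 74.0 to 78.6 against 79.1 to 83.9 FPKM. Nrp2 of that list went the other way, with a mean of 19.3 FPKM in SF and 19.0 in SM. Marker sums of main epithelium neurons did not overlap either, at 18.2 to 20.8 against 25.2 to 30.1. The part of these marker sums in the H2-Mv differences was not tested.

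Housing was compared within each sex and over both. For SF minus CF, 0 of 9 members passed (0% of genes), 6 of 9 estimates were below 0 and the median was -0.17, beside -0.10 over all genes, 79.8% of which were below 0. For SM minus CM, 0 of 9 passed (0% of genes), 7 of 9 were below 0 and the median was -0.11, beside -0.01 over all genes and 53.6% below 0. For both sexes together, 0 of 9 passed (0% of genes), 7 of 9 were below 0 and the median was -0.13, beside -0.05 over all genes and 75.1% below 0. With any 1 library left out, the counts below 0 ran from 6 to 7, from 5 to 9 and from 5 to 8. Relative to the summed Vmn2r level or with quantile normalization, 5 of 9 were below 0 in the last comparison.

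H2-M10.2 and H2-M10.6 had the largest housing differences, with log2 values for sex-separated minus sex-combined of -0.26 (-0.49 to -0.03) and -0.22 (-0.37 to -0.06) and adjusted p of 0.626 each. H2-M1 and H2-M9 were on the other side of 0, at 0.09 and 0.05, but H2-M1 was at 0.03 without the third SF library, and H2-M9 at -0.01 without the first SF or the third CF library. All SF libraries were below all CF libraries for 1 of 9 members, H2-M10.6, beside 14.9% of all genes, and all SM below all CM for the same gene, beside 4.15%. For H2-M10.6 the interaction of sex and housing was -0.18 (-0.49 to 0.13), or -0.05 without the third SF library.

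Marker sums differed between the housings as well. Erythroid markers (3 of the list's 4 genes were in the table) summed to 57.5 to 229 FPKM in sex-separated and 233 to 459 in sex-combined mice, without overlap. SF also lay wholly below CF in the sums of markers of all vomeronasal neurons, at 117 to 142 against 147 to 163 FPKM, of apical neurons, at 74.0 to 78.6 against 83.8 to 84.7, and of immature neurons, at 32.2 to 35.5 against 39.6 to 43.1. Markers of basal neurons, at 64.5 to 71.8 in SF and 70.9 to 80.6 in CF, overlapped. By the RNA integrity numbers that the paper lists, every SF pool of VNO was above every CF pool, while SM and CM overlapped. The part of these sums and of RNA integrity in the H2-Mv differences was not tested.

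In MOE the 2 members with a mean of at least 0.5 FPKM could be tested among 13728 genes, and 0 of 2 passed for SF minus SM (0.102% of genes), CF minus CM (0.0437%) and all females minus all males (0.0728%). H2-M10.6 was at 0.386, 0.550 and 0.600 FPKM in SF, 0.835, 0.759 and 0.420 in SM, 0.377, 0.438 and 0.401 in CF, and 0.811, 1.07 and 0.947 in CM. All CF libraries were below all CM libraries, as for 0.313% of genes, and SF overlapped SM. The log2 difference was -0.67 (-1.05 to -0.28) for CF minus CM, beside a median of 0.10 over all genes, with an unadjusted p of 0.00197 and an adjusted p of 1 in limma, and -0.20 (-0.58 to 0.19) for SF minus SM. The latter was -0.11 without the first SF library, -0.09 without the first SM library and -0.36 without the third SM library. The mean of H2-M10.6 in females was lower than in males in VNO as well, at a log2 difference of -0.22 over both housings. Both tissues were taken from the same mice, so these values are not from separate animals.

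H2-M10.3 in MOE was at 1.069, 0.951 and 1.109 FPKM in SF, 1.161, 1.353 and 1.115 in SM, 0.664, 1.33 and 0.423 in CF, and 1.20, 0.991 and 0.516 in CM. All SF libraries were below all SM libraries, if narrowly, as for 6.53% of genes, and CF overlapped CM. The log2 difference was -0.15 (-0.64 to 0.34) for SF minus SM and -0.13 (-0.62 to 0.36) for CF minus CM. The first was -0.09 without the second SM library, and the second was above 0 without the third CF library (0.09) or the first CM library (0.03). Housing and the interaction passed for 0 of 2 members as well, beside 0.051% of genes for SF minus CF, 0.0656% for SM minus CM, 0.102% for both sexes and 0.0364% for the interaction. Bone and cartilage markers in MOE summed to 44.1 to 62.8 FPKM in females and 34.8 to 50.1 in males, which overlapped, and their part was not tested.

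Related gene lists in VNO gave a frame for these counts. Of the classical class I and antigen processing genes, 14 of 14 were tested and 0 passed in any comparison, and their median for all females minus all males was -0.03. Of the other class Ib genes, 9 of 16 were tested, 0 passed, and the median was 0.01. Of the Vmn2r genes, 75 of 120 were tested, 0 passed, and the median was -0.02. Of the Vmn1r genes, 90 of 221 were tested, the median was -0.11, and 1 passed: Vmn1r89, with a log2 difference of -0.78 ± 0.11 (SE, adjusted p = 0.0243) for SF minus SM and -0.63 ± 0.0764 (adjusted p = 0.00563) for all females minus all males. For SF minus CF the median of the classical class I and antigen processing genes was -0.19, with 13 of 14 below 0. It was -0.12 for the other class Ib, -0.06 for the Vmn2r and -0.05 for the Vmn1r genes, beside -0.17 for the H2-Mv genes. For sex-separated minus sex-combined the medians were -0.12, -0.07, -0.05 and -0.08 in that order, beside -0.13. For CF minus CM they were 0.02, 0.11, -0.0009 and -0.12, beside -0.15.

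Across the VNO libraries, the H2-Mv sum was set beside the receptor sums. It fell into a set of 5 libraries at 54.8 to 59.0 FPKM (the 3 SF libraries, the second SM and the third CF library) and a set of 7 at 63.9 to 69.4 FPKM. The 5 libraries had Vmn1r sums of 171 to 184 FPKM and the 7 had 206 to 232, with no overlap, while their Vmn2r sums of 223 to 257 and 239 to 272 overlapped. The libraries thus formed separate sets, and a relation between the sums could not be tested. As a description, with group means subtracted, Pearson's r of the log2 sums over the 12 libraries was 0.928 with Vmn2r and 0.948 with Vmn1r. These values include the second SM and the third CF library, which lay in the lower set, and all sums shared the library and its scaling. As a share of the Vmn1r sum, the H2-Mv sum kept to 29.5% to 32.8% in all 12 libraries.

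**Figure D5:**
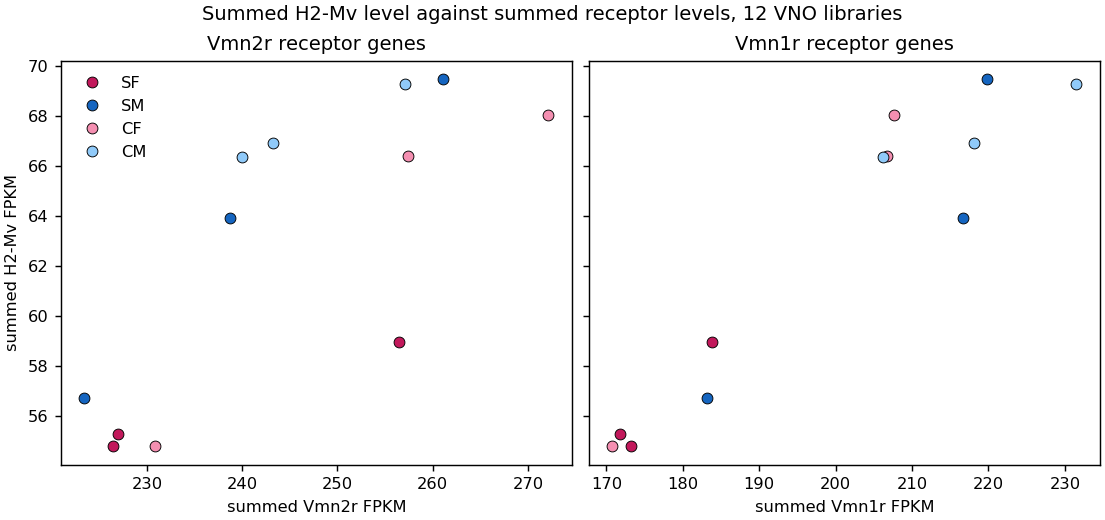
Summed FPKM of the 9 H2-Mv genes (y axis) against summed FPKM of the Vmn2r genes (left x axis) and of the Vmn1r genes (right x axis), 1 point per VNO library, coloured by group; the axes do not start at 0. The 5 libraries with an H2-Mv sum of 54.8 to 59.0 are separate from the other 7 in Vmn1r sum but not in Vmn2r sum.

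After group means were subtracted, the genes whose log2 level followed the H2-Mv sum most closely over the 12 VNO libraries, of 12291 with a mean of at least 1 FPKM, were Ftsj1 (r = 0.965), Slc25a46 (0.955), Ift80 (0.941), Fam133b (0.939) and Kif21a (0.934). B2m had an r of 0.647, Omp of 0.601, Trpc2 of 0.506, Gnai2 of 0.398, Gnao1 of 0.04, H2-D1 of -0.07 and H2-K1 of -0.17. Between the members themselves, r ran from -0.71 (H2-M10.1 with H2-M11) to 0.867 (H2-M9 with H2-M10.3) over 36 pairs, with a median of 0.386 and 25 pairs above 0. All these values share libraries and are given as a description.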

How the data were processed

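Total RNA depleted of ribosomal RNA was sequenced in pairs from pooled mice. The authors deposited, per library, the FPKM of each RefSeq transcript with confidence limits. The submitters' processing notes name TopHat2 2.1.0, Cufflinks 2.2.1.0, Cuffdiff and build mm9. Transcripts were assigned to symbols by RefSeq accession (99.4% of entries) and summed. The fragments behind a value were estimated as (FPKM / standard error) squared, the error coming from the confidence limits. This takes that error as counting error, which was not checked, and does not cover the spread between pools. The estimates summed to less than the aligned pairs that the paper lists for each library. Reads carried no molecular identifiers, so fragments are not counts of molecules.

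The groups entered limma 3.58.1 (R 4.3.3, trended eBayes) on log2(FPKM + 0.5), with 1 fit per tissue over 12 libraries, for genes with a mean of at least 0.5 FPKM, and Benjamini-Hochberg adjustment over all genes. The fits were tested on simulated data. Named genes were all members, a fixed set (B2m, H2-K1, H2-D1, Tap1, Gnao1, Gnai2, Trpc2, Omp, Cnga2), list genes past the threshold and the 5 genes most like the family sum. Other genes named are markers, or were named after their values were seen. Members and lists were chosen with earlier results of these data known. A test of the relation of sums over 12 VNO libraries had been planned and is not given, because the libraries fell into separate sets.

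Promoters came from the RefSeq table of GRCm38.p6 and coding sequences from GENCODE M21. Alternatives were pseudocounts of 0.1 and 1, no filter, quantile normalization, scaling to the summed Vmn2r level, fits on the compared libraries only, the highest single entry per gene, the replicate number as a block, and each library left out in turn. Other tools were Python 3.11.15, scipy 1.17.1, pandas 2.3.3, numpy 2.4.6 and matplotlib 3.10.9.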

Additional observations from a re-analysis of the deposited data

Results flagged for a closer look

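H2-M10.2 was above 0 in all 12 OB libraries, a tissue in which no H2-Mv gene could be tested. The fragments summed to 31.0 over the 12 libraries, above the 3 fragments that a count of 0 allows, with 1 to 4 per library. Vmn2r genes summed to 2.69 ± 0.296 FPKM in OB, 1.10% of VNO, and Trpc2 was at 0.464% of VNO, beside 2.22% for H2-M10.2. Vmn2r1, a broadly used basal receptor, was at 1.14 ± 0.134 FPKM in OB, 11.7% of VNO, and Vmn2r2 was at 0.612% of VNO. No relation between these values was tested.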

How the results depend on the processing

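No H2-Mv gene passed the threshold in any tissue, comparison or alternative setting that was fitted. The highest single entry per gene was used for levels only and was not fitted. The lowest adjusted p in limma over the fitted settings was 0.0879, against 0.159 in the main fit. It was for H2-M9 in VNO between all females and all males without the first SF library. Leaving out any 1 library gave 0 calls as the lowest and 0 as the highest number. Of the same-numbered pairs, 8 of 18 in VNO had a correlation of deviations over 0.1, and 3 of 18 in MOE and 2 of 18 in OB. Their median correlation was 0.080, 0.026 and -0.004, beside -0.042, -0.009 and 0.006 for pairs with other numbers. Whether the replicate numbers pair the samples was not tested further. With the replicate number as a block 0 members were called in every comparison. With the highest single transcript entry in place of the sum, H2-M10.1 was at 6.55 FPKM in VNO. Its share was then 10.7%. With no filter on low values, members in OB became testable and 0 were called. Depth limits H2-M11 in VNO, all members in OB and all but H2-M10.3 and H2-M10.6 in MOE.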
